A study of Mus musculus with 24 samples.

Results

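Ribosomal protein paralogues are genes that encode close relatives of standard ribosomal proteins. The 6 described here, Rps27l, Rpl22l1, Rpl39l, Rpl36al, Rpl7l1 and Rpl3l, were taken by gene symbol from the 54532 gene IDs that each expression table lists. Each was set beside its parent, the standard gene of the pair (Rps27, Rpl22, Rpl39, Rpl36a, Rpl7 and Rpl3). They were measured by RNA sequencing of mice with a constitutive knockout of Cmtr2, which encodes a methyltransferase of the mRNA cap, and of wild-type littermates. The 24 libraries form 3 sets: Cmtr2 KO and WT whole embryos at embryonic day 8.5 (E8.5), Cmtr2 KO and WT whole embryos at E9.5, and Cmtr2 KO and WT yolk sacs at E9.5, with 4 KO and 4 WT libraries in each. KO embryos looked like their littermates at E8.5 and were smaller at E9.5, per the series' description, and the comparison asks how their transcripts differed. There were 2 litters at E8.5 and 4 at E9.5. The labels name neither the litter of a library nor the strain, nor which exons the null allele lacks. Nothing says whether a library is 1 embryo or a pool, so a p-value speaks only of the spread among these libraries, which may be technical.

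A cytosolic ribosome holds 1 copy of nearly every ribosomal protein, and for a few positions the genome offers another gene whose product can take the place of the first. Some of these relatives are restricted to a tissue: in mice Rpl3l is known from heart and skeletal muscle and Rpl39l from male germ cells. Others are regulated: Rps27l is a target of the transcription factor p53, and in mice the Rpl22 protein is known to repress Rpl22l1. Rpl7l1 belongs with assembly factors of the large subunit (60S) as much as with the ribosome itself, and its relative in budding yeast acts in the nucleolus. Ribosomal proteins also feed back on p53, since free Rpl5, Rpl11 and Rpl23 bind Mdm2, the ligase that marks p53 for destruction.

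The coding sequences of Rps27l and Rps27 are shown because they bear on whether fragments of Rps27l and its parent can be told apart. Capitals mark the bases at which the 2 differ, in an alignment without gaps. The sequences are those of the principal transcripts of GENCODE M21, of Rps27l (chromosome 9, plus strand) and Rps27 (chromosome 3, minus strand).
Rps27l: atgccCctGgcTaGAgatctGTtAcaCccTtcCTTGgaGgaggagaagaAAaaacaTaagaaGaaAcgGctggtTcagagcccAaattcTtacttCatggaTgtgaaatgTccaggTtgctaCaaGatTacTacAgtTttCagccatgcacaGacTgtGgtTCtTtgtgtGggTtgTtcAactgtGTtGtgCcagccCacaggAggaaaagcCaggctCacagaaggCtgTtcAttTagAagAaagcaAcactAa
Rps27: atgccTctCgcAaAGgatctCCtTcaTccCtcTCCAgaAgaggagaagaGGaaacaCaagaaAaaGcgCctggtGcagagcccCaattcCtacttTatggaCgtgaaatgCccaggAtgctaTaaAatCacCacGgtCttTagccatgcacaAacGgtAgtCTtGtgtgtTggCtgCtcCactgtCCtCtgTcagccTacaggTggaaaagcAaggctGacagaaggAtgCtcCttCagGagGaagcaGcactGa
Both are 255 bases long, 61 bases differ, and the longest run of identical bases is 11. No stretch of 100 bases in the Rps27l transcript occurs in a transcript of another gene, and of its 50-base stretches 22.4 percent do, most often in Gm14706, which is listed at 0 in all 24 libraries. Rps27 has a different difficulty: 98.4 percent of its 100-base stretches also occur in Rps27rt, a gene nearly identical to it, and no source used here tells how the authors' counting split such reads.

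The other pairs were less or more alike in their coding sequence, from 52.8 percent identity for Rpl7l1 and Rpl7 through 66.9 percent for Rpl22l1 and Rpl22, 73.2 percent for Rpl3l and Rpl3 and 85.3 percent for Rpl39l and Rpl39 to 87.9 percent for Rpl36al and Rpl36a. No pair shared a 50-base stretch between its own 2 genes. Sharing with other genes was larger. Rpl36al shared 59.0 percent of its 100-base stretches with other genes, almost all with Gm49383, a protein-coding gene annotated over it on the same strand (chromosome 12) and listed at 0 in all 24 libraries. Rpl22l1 shared 40.6 percent with Gm15421, and its values are uncertain to that extent, as are those of Rpl36al and of the parents Rps27, Rpl36a, Rpl3 and Rpl7. Rpl22l1 also overlaps Gm33051 and Rpl7l1 overlaps Gm26904 on the other strand, and the sources do not say that counting used strand.

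The window around the second RefSeq start of Rps27l (GRCm38.p6, chr9:66946163-66946462, plus strand) is shown because p53 is known to act on Rps27l, in human cells through its first intron. It runs from 250 bases before that start to 50 after it and lies inside the gene, downstream of the first annotated start. Capitals mark matches to the p53 half-site, searched on both strands.
Rps27l, second start: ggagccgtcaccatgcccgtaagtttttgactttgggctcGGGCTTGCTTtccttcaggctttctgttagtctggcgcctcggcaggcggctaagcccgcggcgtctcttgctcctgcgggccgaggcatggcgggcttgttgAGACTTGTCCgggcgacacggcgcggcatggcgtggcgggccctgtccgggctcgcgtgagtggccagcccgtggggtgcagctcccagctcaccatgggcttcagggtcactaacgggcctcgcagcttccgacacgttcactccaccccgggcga
The window holds 2 matches, which start at positions -210 and -107 from that start. At least 1 match was present in 8.36 percent of the 32851 RefSeq start windows of the mouse genome and at least 2 in 0.359 percent. These shares count matches at any distance from one another, and half-sites lying side by side were not searched for. The window of the first Rps27l start held none, and that of Rps27 held 1. Of the windows available for the other 5 paralogues none held a match. A match is a stretch of letters and not a measured binding site.

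Values are FPKM (fragments per length of transcript and depth of the library), rescaled within each table so that a typical gene has the same level in all 8 libraries. Libraries held 15555437 to 23379871 fragments as recovered from the tables. At E9.5 the depth implied by the FPKM values was not the recovered fragment total in every library. Deposited values there may therefore already be scaled between libraries. The Cmtr2 transcript followed the titles of the libraries: in scaled FPKM it averaged 0.704 ± 0.160 in KO and 6.16 ± 0.395 in WT embryos at E8.5, 0.539 ± 0.126 in KO and 3.51 ± 0.594 in WT embryos at E9.5, and 0.197 ± 0.0961 in KO and 3.57 ± 0.341 in WT yolk sacs (SD, n = 4 each). An exact permutation test, two-sided, gave p = 0.0286 in all 3, and with 4 against 4 libraries no smaller p is possible. The separate genotype tag of the labels names the opposite genotype in 24 of 24 libraries, and the titles were used.

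A gene was tested where its FPKM reached 1 in at least 4 of the 8 libraries of a set, and was called at a limma adjusted p under 0.05 over all tested genes. Of the 6 paralogues, 4 passed this filter in each embryo set and 3 in yolk sac. Rps27l was the called member, in E9.5 embryos and in yolk sac. None of the 4 was called at E8.5, where 0.957 percent of 13058 tested genes were, and limma's voom on recovered fragments also called 0. An unadjusted p under 0.05 was reached by 2 of the 4, and by 3237 of the 13058. In E9.5 embryos 1 of 4 was called, against 13.6 percent of 12027 genes, and in yolk sac 1 of 3, against 2.84 percent of 12010. With so few members these shares say little about the family, and the genes are described one by one.

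**Figure D1:**
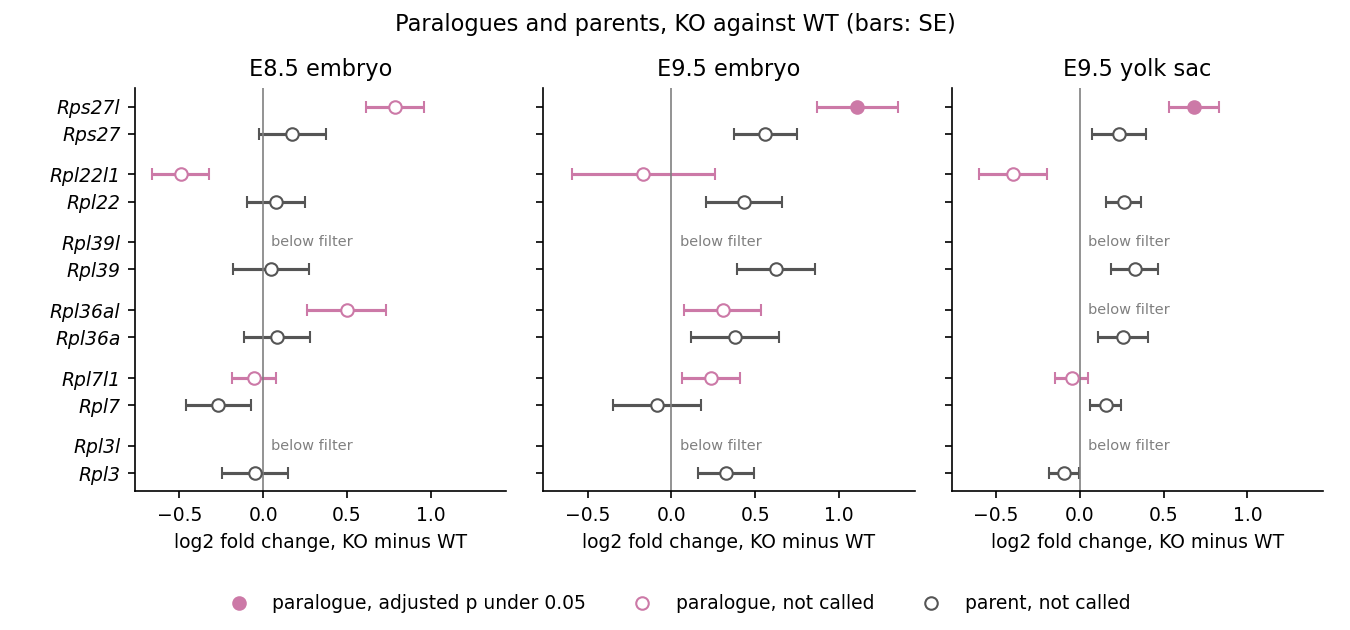
Log2 fold change (KO minus WT, x axis) of each paralogue and, beneath it, its parent, in the 3 sets. Points are limma estimates and bars are SE (n = 4 KO and 4 WT); filled points passed an adjusted p of 0.05, and "below filter" marks genes too low to test. Rps27l lies furthest to the right among the 12 genes in each panel, with the filled points in E9.5 embryo and yolk sac.

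Rps27l (ENSMUSG00000036781, GRCm38 chromosome 9, 66946086 to 66949516, plus strand) encodes a relative of the small-subunit protein Rps27, a zinc-binding protein of the 40S particle. It was higher in all 4 KO libraries than in any WT library of the same set, in each of the 3 sets. That pattern was seen in 8.09 percent of tested genes at E8.5, 11.2 percent in E9.5 embryos and 5.77 percent in yolk sac. Relative to WT its mean level in KO was 1.72-fold at E8.5, 2.16-fold in E9.5 embryos and 1.62-fold in yolk sac.

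At E8.5 the scaled FPKM of Rps27l was 669.6, 855.6, 719.9 and 948.6 in KO embryos, against 501.5, 549.3, 367.9 and 432.8 in WT embryos. The lowest KO library was above the highest WT library. The log2 fold change was 0.79 (SE 0.17) and the limma adjusted p was 0.0552, just short of the threshold. Of 21 other analyses 5 put it under 0.05, among them the values as deposited (adjusted p = 0.0424) and a term for replicates 1 and 2 against 3 and 4 (0.0166). The other 16 did not, with adjusted p up to 0.155, and they include each of the 8 that left out 1 library (0.0784 to 0.131). KO replicates 1 and 2 were low in 6 markers of primitive red cells, at summed scaled FPKM of 183.5 and 1074, against 2819 to 6691 in the other 6 libraries. Without them the Rps27l log2 fold change was 0.86 and the adjusted p was 0.149.

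In E9.5 embryos Rps27l had 356.9, 474.7, 699.6 and 517.9 scaled FPKM in KO, against 335.3, 212.7, 179.3 and 221.4 in WT. WT replicate 1 stood well above the other 3 WT libraries and close to KO replicate 1, the lowest of the KO libraries. Rps27l rose by 1.11 on the log2 scale (SE 0.24, adjusted p = 0.0260). The call was lost without any 1 of KO replicates 2, 3 or 4 or WT replicates 2, 3 or 4, at log2 fold changes of 0.95 to 1.13 and adjusted p of 0.0533 to 0.0841. It was kept without KO replicate 1 (0.0171) or WT replicate 1 (0.0151).

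Among the E9.5 embryo libraries 3 stood apart in T, the brachyury gene of the tailbud. Its scaled FPKM was 0.990 in KO replicate 2, 0.511 and 1.23 in WT replicates 1 and 3, and at least 8.86 in the other 5. The sum of 5 tailbud markers, T among them, was 36.6 in KO replicate 2 and 10.8 and 18.6 in WT replicates 1 and 3. It was 38.4 to 70.9 in the other 5, so KO replicate 2 stood apart in T but hardly in the sum. Without those 3 the Rps27l log2 fold change was 1.21 (SE 0.29, adjusted p = 0.0661). With TPM in place of scaled FPKM the median over all tested genes shifted to -0.34, and Rps27l was at 0.75 (adjusted p = 0.0701), or 1.09 above that median.

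In yolk sac Rps27l had 232.6, 209.8, 233.3 and 332.1 scaled FPKM in KO, against 142.3, 145.7, 182.9 and 149.8 in WT. The groups did not overlap, and KO replicate 4 was the highest. Rps27l rose by 0.68 (SE 0.15, adjusted p = 0.0464). The call held without WT replicate 3 (0.0447). It was lost without any other library, at 0.0550 to 0.135, and with scaling factors over all genes (0.0597). The labels name no pairs, but same-numbered yolk sac samples deviated together in these same values and were taken as pairs. That choice is uncertain. Replicates 2 and 4 had correlations of 0.30 and 0.21, against 0.29 and 0.18 for the best differently numbered sample. With that pairing, which the main fit left out, the adjusted p of Rps27l was 0.0427.

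**Figure D2:**
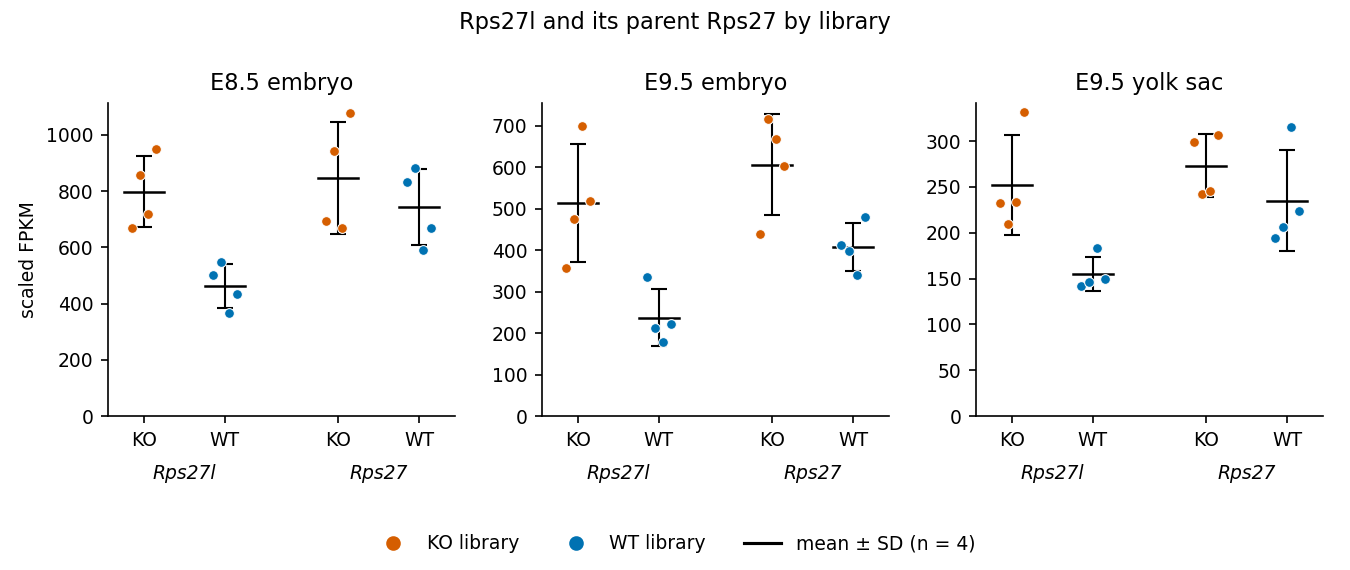
Scaled FPKM (y axis, from 0) of Rps27l and its parent Rps27 in KO (orange) and WT (blue) libraries of each set; points are libraries, lines are means and bars are SD (n = 4). KO and WT points of Rps27l do not overlap in any set, and those of Rps27 do in all 3.

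Rps27 was not called in any set. Its log2 fold change was 0.17 (SE 0.20, adjusted p = 0.610) at E8.5, 0.56 (SE 0.19, adjusted p = 0.0667) in E9.5 embryos and 0.24 (SE 0.16, adjusted p = 0.474) in yolk sac. In E9.5 embryos its mean was 606.1 ± 121 scaled FPKM in KO and 406.9 ± 57.3 in WT (SD, n = 4 each). There it passed the threshold without KO replicate 1 (0.71, adjusted p = 0.0251), and in voom on recovered fragments (0.60, adjusted p = 0.0399).

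Since both genes are read from the same library, their ratio does not depend on how the libraries were scaled. Rps27l made up 49.2, 47.6, 51.9 and 46.8 percent of the pair's FPKM in E8.5 KO embryos, against 37.6, 38.4, 38.4 and 39.3 percent in WT embryos. The WT libraries lay within 2 percentage points of one another and all below the KO libraries. The log2 ratio of Rps27l over Rps27 was higher in KO by 0.61, at -0.07 ± 0.13 in KO and -0.68 ± 0.04 in WT (SD, n = 4 each; exact two-sided permutation p = 0.0286).

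In yolk sac the Rps27l share was 43.7, 46.4, 48.7 and 52.0 percent in KO, against 42.3, 41.4, 36.7 and 40.1 percent in WT. The groups did not overlap there either, and the log2 ratio was higher in KO by 0.45 (exact permutation p = 0.0286). In E9.5 embryos it was 44.9, 39.9, 51.1 and 46.2 percent in KO, against 44.9, 34.9, 34.5 and 31.6 percent in WT. WT replicate 1 overlapped the KO libraries. The log2 ratio differed by 0.55 and the exact permutation p was 0.0857.

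Ratios were tested for the 4 pairs in which both genes were above 0 in every library, 12 tests in the 3 sets. The 3 with an exact permutation p of 0.0286, the smallest that this design can give, are Rps27l over Rps27 at E8.5 and in yolk sac and Rpl22l1 over Rpl22 at E8.5. None would pass a correction for 12 tests. Because Rps27rt shares nearly all of its sequence with Rps27, the Rps27l ratio was also taken over the sum of both, and was then higher in KO by 0.65, 0.56 and 0.49 at E8.5, in E9.5 embryos and in yolk sac (exact permutation p = 0.0286, 0.0571 and 0.0286). Rps27rt itself was below Rps27 in every set, at 20.9 ± 5.52 in KO and 34.9 ± 4.47 scaled FPKM in WT embryos at E8.5 (SD, n = 4 each). In yolk sac it reached 146.7 ± 28.0 in KO and 134.3 ± 38.1 in WT.

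**Figure D3:**
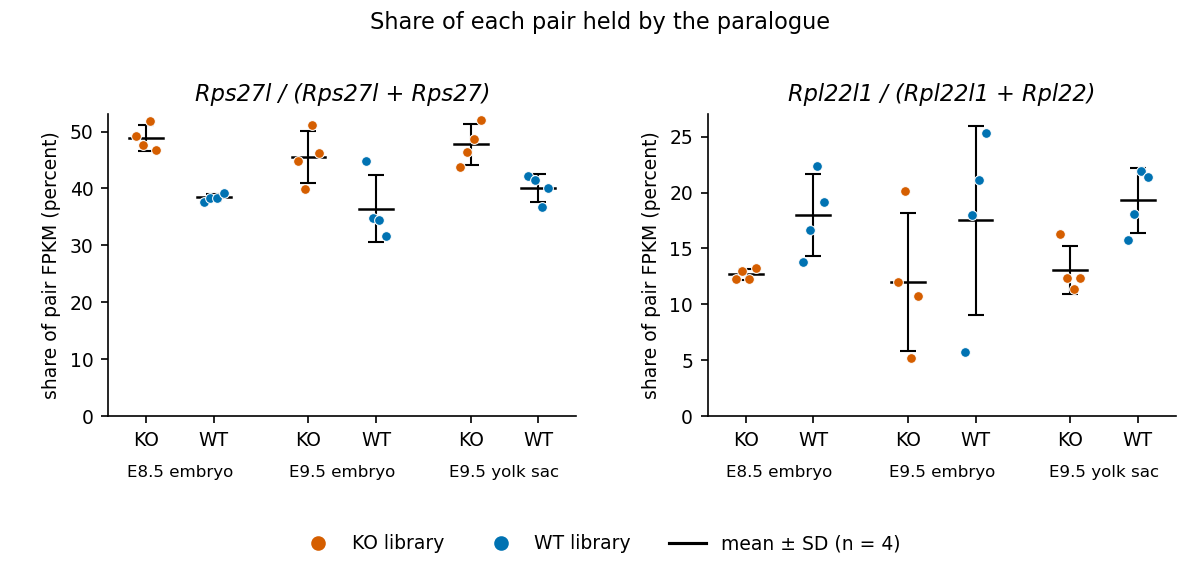
Share of the pair's summed FPKM (y axis, percent, from 0) held by Rps27l (left) and Rpl22l1 (right) in KO (orange) and WT (blue) libraries; points are libraries, lines are means and bars are SD (n = 4). The Rps27l share is higher in all KO libraries at E8.5 and in yolk sac, and the Rpl22l1 share is lower in all KO libraries at E8.5.

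Rpl22l1 (ENSMUSG00000039221, chromosome 3, 28805436 to 28807424, plus strand), the relative of the large-subunit protein Rpl22, had the opposite sign. At E8.5 its scaled FPKM was 77.6, 101.5, 79.1 and 110.9 in KO embryos, against 100.9, 148.7, 135.4 and 134.1 in WT embryos. Only WT replicate 1 fell within the KO range. The log2 fold change was -0.49 (SE 0.17, adjusted p = 0.124), so the difference did not pass the test. Its parent Rpl22 had a log2 fold change of 0.08 (SE 0.17, adjusted p = 0.808).

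Set against its parent, Rpl22l1 separated the genotypes at E8.5. It made up 12.3, 13.0, 12.3 and 13.2 percent of the pair in KO, against 13.7, 16.6, 22.3 and 19.2 percent in WT. All KO libraries lay below all WT libraries, and the KO libraries were within 1 percentage point of one another while the WT libraries spread widely. The log2 ratio was lower in KO by 0.57, at -2.78 ± 0.06 in KO and -2.21 ± 0.36 in WT (SD, n = 4 each; exact permutation p = 0.0286).

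In yolk sac Rpl22l1 had 23.8, 15.6, 15.8 and 20.5 scaled FPKM in KO, against 17.4, 23.0, 32.4 and 28.9 in WT. KO replicate 1 and WT replicate 1 crossed over, and the log2 fold change was -0.40 (SE 0.20, adjusted p = 0.326). The share of the pair was 11.3 to 16.3 percent in KO and 15.8 to 21.9 percent in WT, and the log2 ratio had a mean difference of -0.67 (exact permutation p = 0.0571). Rpl22 had a log2 fold change of 0.26 (SE 0.10, adjusted p = 0.215).

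Rpl22l1 was most variable in E9.5 embryos. Its scaled FPKM was 25.9, 53.4, 19.6 and 31.4 in KO, against 14.5, 37.6, 37.7 and 66.2 in WT. The lowest of the 8 was WT replicate 1 and the second highest was KO replicate 2, which are among the 3 libraries low in T. The log2 fold change was -0.17 (SE 0.43, adjusted p = 0.803). Without those 3 libraries it was -0.98 (SE 0.28, adjusted p = 0.0787), and the mean difference of the log2 ratio to Rpl22 was -1.50 in place of -0.60. With KO replicate 3 or WT replicate 4 left out its sign turned, at 0.04 and 0.14. The part of the T difference in the Rpl22l1 values was not tested.

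**Figure D4:**
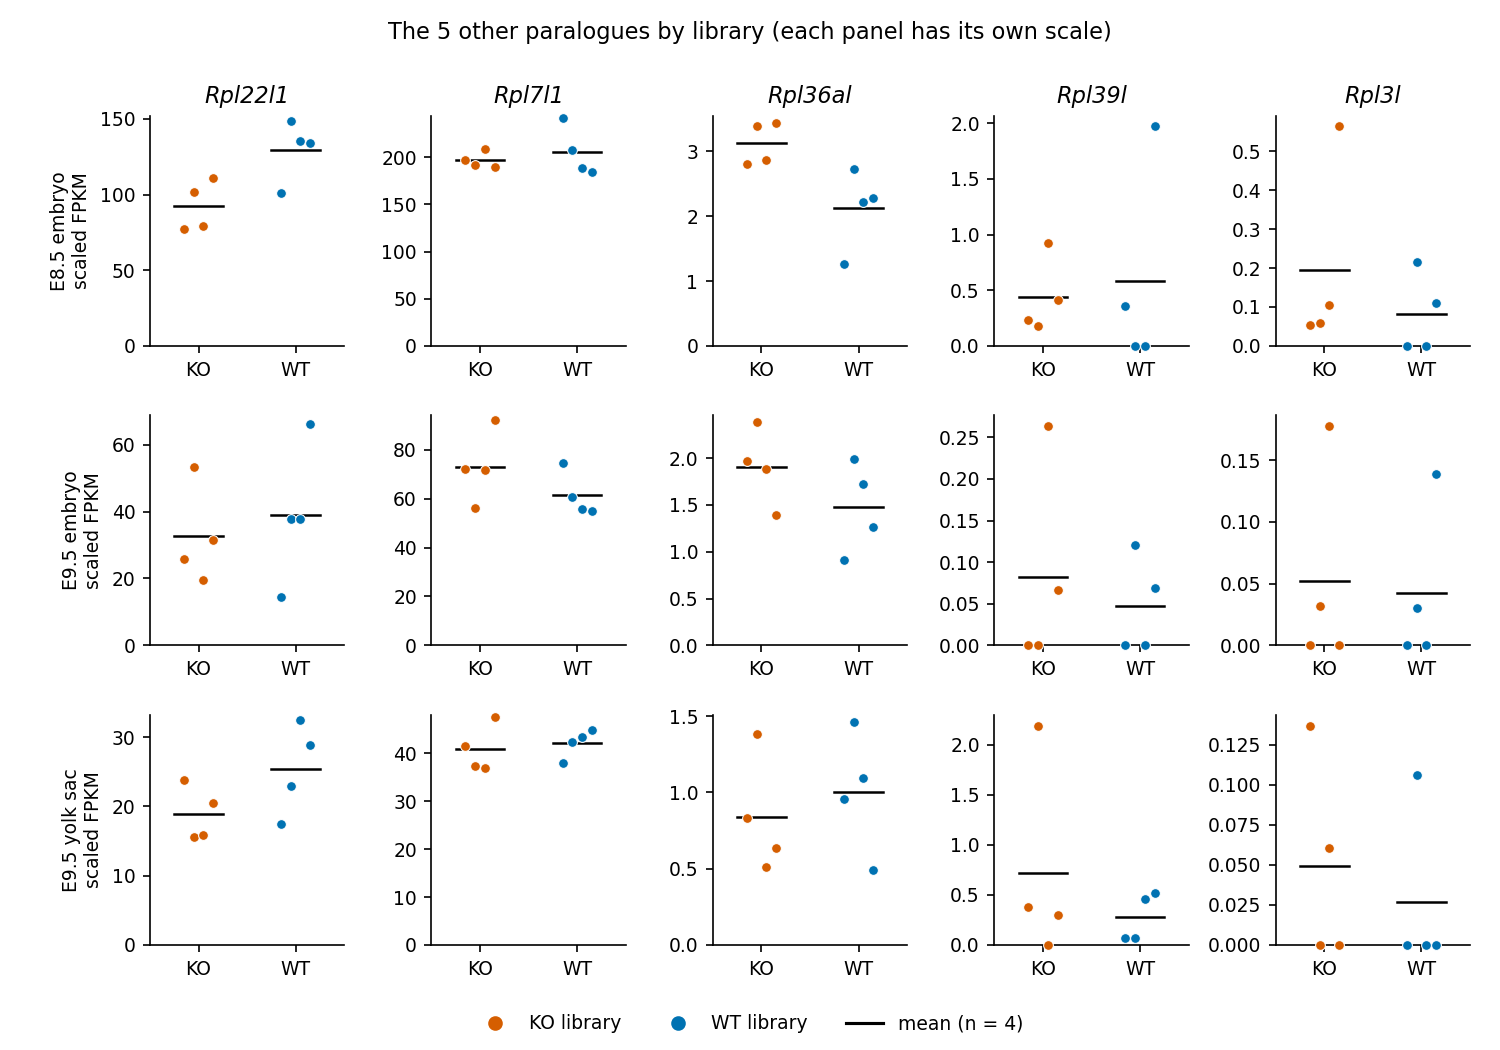
Scaled FPKM (y axis, from 0, own scale in each panel) of Rpl22l1, Rpl7l1, Rpl36al, Rpl39l and Rpl3l in KO (orange) and WT (blue) libraries of the 3 sets (rows); points are libraries and lines are means (n = 4). Rpl22l1 at E8.5 has 1 WT point within the KO range, and Rpl39l and Rpl3l stay at or below an FPKM of 2.19 everywhere. All KO points of Rpl36al at E8.5 lie above the WT points, as in 8.09 percent of tested genes there.

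Rpl7l1 (ENSMUSG00000063888, chromosome 17, 46773907 to 46782672, minus strand) came next to Rps27l in mean WT level and was not called in any set. In scaled FPKM it averaged 196.9 ± 8.85 in KO and 205.4 ± 26.1 in WT at E8.5, 73.0 ± 14.9 in KO and 61.4 ± 9.01 in WT in E9.5 embryos, and 40.7 ± 4.95 in KO and 42.0 ± 2.95 in WT in yolk sac (SD, n = 4 each). The groups overlapped in all 3 sets. Its log2 fold changes were -0.05 (SE 0.13), 0.23 (SE 0.17) and -0.05 (SE 0.10), with adjusted p of 0.828, 0.345 and 0.835. The E9.5 embryo value turned to -0.13 after rescaling to TPM. Its parent Rpl7, a protein of the large subunit, was not called either, at -0.27 (SE 0.19), -0.09 (SE 0.26) and 0.15 (SE 0.09). The log2 ratio of Rpl7l1 over Rpl7 was higher in KO by 0.21 and 0.33 in the embryo sets and had a mean difference of -0.20 in yolk sac, with exact permutation p of 0.286, 0.371 and 0.0571.

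Rpl36al (ENSMUSG00000049751, chromosome 12, 69182731 to 69184083, minus strand), an autosomal relative of the X-linked Rpl36a, was read from 14 to 62 fragments per library. At E8.5 its scaled FPKM was 2.81, 3.39, 2.87 and 3.44 in KO, against 1.26, 2.72, 2.22 and 2.28 in WT. All KO libraries were above all WT libraries, the lowest KO library by a narrow margin, a pattern seen in 8.09 percent of tested genes at E8.5. The log2 fold change was 0.50 (SE 0.24) and the adjusted p was 0.215. In E9.5 embryos the groups overlapped, at 1.91 ± 0.408 in KO and 1.47 ± 0.479 in WT (SD, n = 4 each), with a log2 fold change of 0.30 (SE 0.23, adjusted p = 0.355). In yolk sac it was between 0.512 and 1.38 in KO and between 0.495 and 1.46 in WT and was too low to test. Rpl36al held under 1 percent of its pair's FPKM in every library, and none of the 3 ratio tests had a p under 0.0857. Both genes of the pair share much of their sequence with other genes, so its level and this share are uncertain. Rpl36a was not called, at 0.08 (SE 0.20), 0.38 (SE 0.26) and 0.26 (SE 0.15).

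Rpl39l (ENSMUSG00000039209, chromosome 16, 10170226 to 10174911, plus strand) and Rpl3l (ENSMUSG00000002500, chromosome 17, 24727820 to 24736143, plus strand) were too low to test in all 3 sets. Rpl39l was read from 0 to 36 fragments per library. It had 3, 2, 12 and 5 fragments in E8.5 KO embryos against 5, 0, 0 and 24 in WT, 0, 0, 3 and 1 in E9.5 KO embryos against 0, 2, 0 and 1 in WT, and 7, 36, 0 and 4 in KO yolk sacs against 1, 1, 7 and 9 in WT. Single libraries held most of the fragments of a group. A count of 0 allows an FPKM of up to that of 3 fragments, 0.188 and 0.258 in the 2 E8.5 WT libraries with none, counting error only. The 7 germ cell and pluripotency markers summed to 9.80 to 40.6 scaled FPKM in KO and 7.99 to 36.3 in WT at E8.5 to 1.07 to 2.18 in KO and 0.954 to 2.63 in WT in E9.5 embryos, and to at least 2.22 in KO and 1.81 in WT in yolk sac, and none was at 0 throughout a set. Its parent Rpl39, by contrast, averaged 469.7 ± 143 in KO and 444.3 ± 85.6 scaled FPKM in WT at E8.5 (SD, n = 4 each). Rpl39 had log2 fold changes of 0.05 (SE 0.23), 0.62 (SE 0.23, adjusted p = 0.0888) and 0.33 (SE 0.14, adjusted p = 0.247), and passed the threshold in E9.5 embryos only where KO replicate 1 was left out (0.82, adjusted p = 0.0312).

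Rpl3l, the muscle relative of Rpl3, had 1, 1, 2 and 10 fragments in E8.5 KO embryos against 0, 5, 0 and 2 in WT, 0, 1, 4 and 0 in E9.5 KO embryos against 0, 1, 0 and 4 in WT, and 5, 0, 2 and 0 in KO yolk sacs against 0, 3, 0 and 0 in WT. The 12 cardiomyocyte markers examined were all above 0 in some library of each set. Their summed scaled FPKM ran from 184.7 to 886.4 in KO and 270.8 to 1066 in WT at E8.5, 156.7 to 906.6 in KO and 18.4 to 610.3 in WT in E9.5 embryos, and 16.9 to 22.2 in KO and 10.1 to 15.5 in WT yolk sacs. Of 6 skeletal muscle markers Myf5, Myog and Myod1 were at 0 in all yolk sac libraries, and the 6 summed to 8.39 to 27.5 in KO and 8.60 to 37.5 in WT at E8.5, at least 7.44 in KO and 3.84 in WT in E9.5 embryos and 1.68 to 2.68 in KO and 1.42 to 4.93 in WT yolk sacs. The library with the most Rpl3l, E8.5 KO replicate 4, was not the one with the highest cardiomyocyte sum. Fewer cells of a type and less RNA per cell cannot be told apart in such bulk samples. Rpl3 was abundant and not called, with log2 fold changes of -0.05 (SE 0.20), 0.33 (SE 0.17) and -0.10 (SE 0.09).

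Within WT samples the paralogues kept nearly one order of level. By mean scaled FPKM, Rps27l came first (462.9 ± 79.3 at E8.5, 237.2 ± 67.9 in E9.5 embryos, 155.2 ± 18.7 in yolk sac), followed by Rpl7l1, Rpl22l1 (129.8 ± 20.4, 39.0 ± 21.2 and 25.4 ± 6.59), Rpl36al, Rpl39l and Rpl3l (SD, n = 4 each). Rpl7l1 and Rpl22l1 overlapped between libraries in E9.5 embryos and not in the other sets. Rpl36al and Rpl39l overlapped at E8.5 and in yolk sac, and Rpl39l and Rpl3l overlapped in all 3 sets. The place of Rpl36al is uncertain, since 59.0 percent of its 100-base stretches also occur in other genes. These orders hold within a table: the tables were normalised separately and the E8.5 table uses another gene length, so levels are not set against each other across tables. Rps27l ranked 71, 64 and 60 by WT level among the 79 standard ribosomal protein genes of the 3 sets.

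The size of the KO effect on the members did not differ detectably between tissues or stages. For Rps27l the effect in yolk sac minus that in E9.5 embryos was -0.43 on the log2 scale (SE 0.30, adjusted p = 0.378), and the effect in E9.5 minus that in E8.5 embryos was 0.32 (SE 0.31, adjusted p = 0.910). The approximate 95 percent intervals ran from -1.01 to 0.16 and from -0.28 to 0.92, and both include 0. limma called 0 of the 3 testable paralogues for the tissue difference and 0 of 4 for the stage difference, against 2.23 and 0.0517 percent of all genes, and none had an unadjusted p under 0.05. Of the 6 parents 0 were called in either, and 1 (Rpl3, tissue) had an unadjusted p under 0.05. Over all tested genes 2714 of 10511 (tissue) and 572 of 11595 (stage) had an unadjusted p under 0.05.

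**Figure D5:**
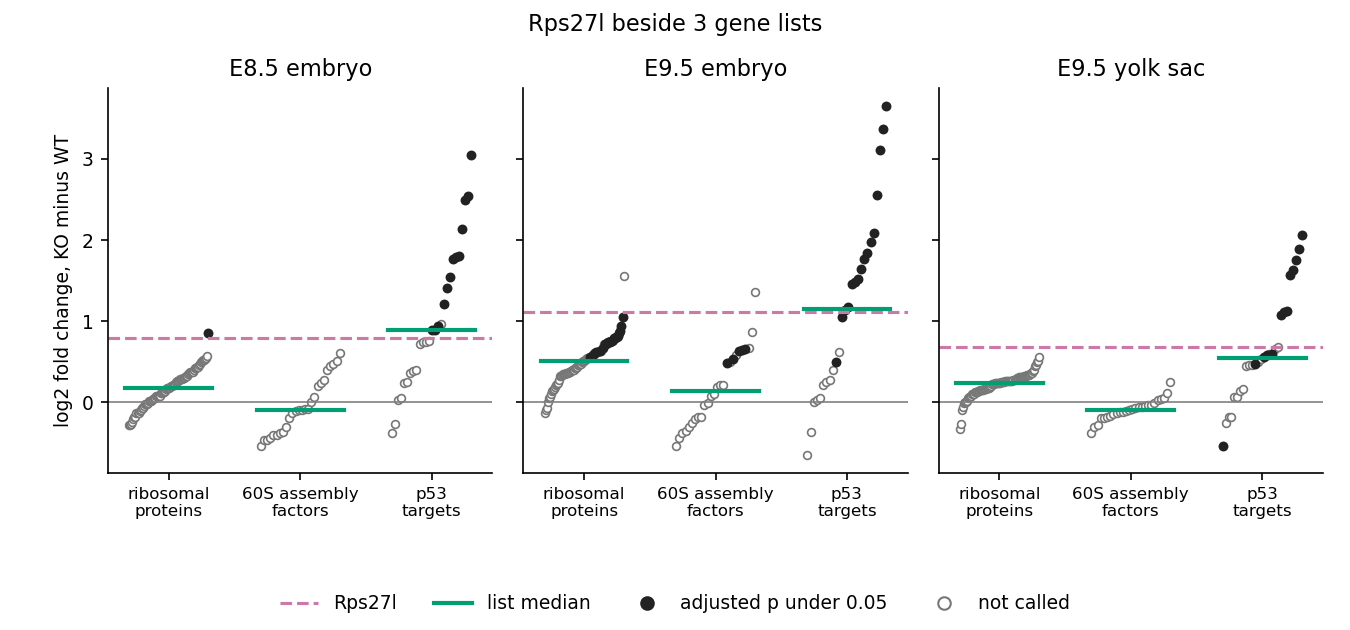
Log2 fold changes (KO minus WT, y axis) of the tested genes of 3 lists in each set, sorted along x within a list; filled points passed an adjusted p of 0.05, green lines are list medians and the dashed line is Rps27l. Rps27l lies near the top of the ribosomal protein list and near the median of the p53 targets in each set.

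Few standard ribosomal protein genes had a log2 fold change above that of Rps27l. By log2 fold change Rps27l would rank 2, 2 and 1 among the 79 of E8.5 embryos, E9.5 embryos and yolk sac. Their median log2 fold change was 0.18, 0.51 and 0.24, beside 0.01 for all tested genes in each set. At E8.5 1 of 79 rose (Rps10, a small-subunit protein, 0.86, SE 0.16, adjusted p = 0.0404) and 0 fell, against 0.528 percent of all genes that rose, and voom called 0 of the 79. The Rps10 call was lost without any 1 library (adjusted p of 0.0574 to 0.122). In E9.5 embryos 24 rose and 0 fell, led by the large-subunit genes Rpl36 (1.05, SE 0.20, adjusted p = 0.0193) and Rpl38 (0.94, SE 0.23, adjusted p = 0.0310), against 7.35 percent of all genes that rose. That count was 0 after rescaling to TPM and 0 without the 3 libraries low in T, where the median stayed at 0.51. In voom it was 38. With 1 library left out it was 38 without KO replicate 1, 29 without WT replicate 1, 6 without WT replicate 4, 1 without KO replicate 3 and 0 without any 1 of KO replicates 2 or 4 or WT replicates 2 or 3. Markers of other cells also differed in the same comparison. Of 5 neural markers 3 fell (Fabp7, Pax6 and Nkx2-1), where 753 of all 12027 tested genes fell. The median of the 5 was -1.01, with highest sums of 62.8 scaled FPKM in KO and 124.3 in WT and overlapping groups. Of 10 tested cardiomyocyte markers 0 were called (median 1.95). The cardiomyocyte sum was 18.4 and 21.7 in WT replicates 1 and 3, which were also low in T, against 156.7 to 906.6 in the other libraries. The part of these marker differences in the ribosomal protein and Rps27l values was not tested. In yolk sac limma and voom each called 0 of 79, and 17 had an unadjusted p under 0.05, where 2302 of all 12010 tested genes did.

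Genes known as targets of p53, a list of 29 without Rps27l, rose in part in all 3 sets. At E8.5 13 of 27 tested targets rose and 0 fell (median 0.89), in E9.5 embryos 16 of 26 rose and 0 fell (1.16), and in yolk sac 12 of 28 rose and 1 fell (0.54). Of all tested genes 0.528 percent rose at E8.5 and 7.35 percent in E9.5 embryos. In yolk sac 1.22 percent of them rose and 1.62 percent fell. At E8.5 the largest rises were of Phlda3, an inhibitor of Akt, and Eda2r, a death receptor relative in the TNF receptor superfamily (3.05 and 2.55, adjusted p = 8.43e-05 and 0.000242). Cdkn1a, which encodes the cell cycle inhibitor p21, rose by 3.66 in E9.5 embryos (adjusted p = 4.33e-07) and by 2.07 in yolk sac (adjusted p = 0.000875), while Phlda3 rose by 3.37 in E9.5 embryos and Eda2r by 1.88 in yolk sac. Beside the list medians, the Rps27l log2 fold changes were 0.79, 1.11 and 0.68. The member that fell in yolk sac was Tigar, a regulator of glycolysis (-0.53, SE 0.10, adjusted p = 0.0229), a call kept only without KO replicate 3, WT replicate 1 or WT replicate 3 when 1 library was left out (highest adjusted p 0.0857). Without the 2 E8.5 libraries low in red cell markers 6 of 27 rose. With 1 library left out, 7 to 11 targets were called at E8.5, in place of 13. The fewest were called without WT replicate 1, and 8 without any 1 of KO replicates 2, 3 or 4 or WT replicate 2. Calls over all genes fell too, to 34 to 79 in place of 125. In yolk sac 7 targets were called without WT replicate 4 and 10 to 14 without any other 1 library, in place of 13. Over all genes 89 to 292 were called there, in place of 341.

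Of the 6 genes through which ribosomal proteins and p53 are linked, 0 were called at E8.5, 1 in E9.5 embryos and 1 in yolk sac. Of all tested genes 0.957, 13.6 and 2.84 percent were called in these sets. With so few genes these shares say little about the list. Mdm2, itself a p53 target, rose in yolk sac, at a mean scaled FPKM of 18.4 in KO and 12.2 in WT (log2 fold change 0.58, SE 0.10, adjusted p = 0.0173), a call lost without KO replicate 2 or WT replicate 4 (highest adjusted p 0.0688). It was not called at E8.5 (0.25, adjusted p = 0.520) or in E9.5 embryos, where the groups overlapped (adjusted p = 0.997). Rpl11 rose in E9.5 embryos, at 544.3 in KO and 349.3 in WT (0.63, SE 0.17, adjusted p = 0.0426), a call kept without KO replicate 1 or WT replicate 1 and lost without any other 1 library, without the 3 libraries low in T (0.59, adjusted p = 0.142) and after rescaling to TPM (0.27, adjusted p = 0.403). Rpl5, Rpl23, Mdm4 and Trp53, the gene of p53, were not called in any set, with log2 fold changes between -0.56 (Mdm4, E9.5 embryos) and 0.32 (Rpl23, yolk sac). Mdm4 in E9.5 embryos passed the threshold in 3 of 20 other analyses: TPM (-0.94, adjusted p = 0.0159), array weights (-0.63, 0.0318) and without KO replicate 1 (-0.72, 0.0464).

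Assembly factors of the 60S particle, among which Rpl7l1 is counted by function, had medians of -0.10, 0.14 and -0.09. At E8.5 and in yolk sac limma and voom called 0 of 26, with 10 and 1 at an unadjusted p under 0.05. Of all tested genes 3237 of 13058 at E8.5 and 2302 of 12010 in yolk sac were under it. In E9.5 embryos 5 of 26 rose, where 7.35 percent of all genes did, led by Mrto4, which takes part in building the ribosomal stalk (0.66, SE 0.15, adjusted p = 0.0292), and Nle1, which acts late in the maturation of the particle (0.65, SE 0.18, adjusted p = 0.0413). Both calls were kept without KO replicate 1 or WT replicate 1 and lost without any other 1 library (highest adjusted p 0.0939 for Mrto4 and 0.124 for Nle1). After rescaling to TPM, which put 3113 of all 12027 genes among the fallen and 132 among the risen, 0 of the 26 rose and 5 fell. Without the 3 libraries low in T 0 rose, and with 1 library left out 7 were called without KO replicate 1, 10 without WT replicate 1 and 0 without any other.

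For Rps27l, Rpl22l1 and Rpl7l1, the 3 paralogues tested in every set, the genes whose levels followed them most closely were found over the 24 libraries, after centring log2 values on the mean of each table. They are a description, since all points share the libraries and the KO and WT groups. Of 9766 protein-coding genes compared, Rpl27, a large-subunit gene, was closest to Rps27l (Pearson r = 0.95, and 0.90 when centred on each genotype group), ahead of Cpped1, a phosphatase gene, and Cdk5rap3 (0.94 and 0.93). Its parent Rps27 was at 0.79, in place 421. Rpl22l1 was nearest to Cmc1, Tnnt3 and Vbp1 (0.79, 0.77 and 0.76), and its parent Rpl22 was at -0.30. Rpl7l1 was nearest to Mrpl9, a gene of the mitochondrial ribosome, Rpl6 and Drg1 (0.84, 0.83 and 0.83), and its parent Rpl7 was at 0.01.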

How the data were processed

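RNA from 24 samples was sequenced. The submitters' processing notes name DESeq2 with GRCm38 and mm10; the read aligner, the counting tool and its strand setting are not given in the sources. The authors deposited FPKM values per gene, 1 table per set. With lengths from GENCODE M21 (mean transcript length at E8.5, union of exons at E9.5), 98.0 to 99.1 percent of low FPKM values were whole fragments within 0.02, which gave fragments and depths.

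Scaling used median-of-ratios factors over the tested genes, and log2(FPKM + 0.5) was fitted with limma 3.58.1 (R 4.3.3, trended empirical Bayes) on genotype, 8 libraries per set, or 16 for differences of effects. Fold changes therefore understate the change of low genes. Adjusted p is Benjamini-Hochberg over all tested genes. Ratios and Cmtr2 were tested by exact permutation (scipy 1.17.1). The fit was tested on simulated data. The labels do not say whether embryo and yolk sac libraries share conceptuses; they were treated as independent.

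The members, lists and tests were chosen with earlier results of these data known. Named were all members and parents, up to 2 risen and 2 fallen called genes of each list, the genes linking ribosomal proteins to p53 and the 3 nearest patterns of each paralogue tested in all sets. Alternatives changed the pseudocount, filter, scaling, trend, weights and replicate block, or left out each library. Factors over all genes, voom, a term for replicates 1 and 2 against 3 and 4, 2 omissions of libraries and the sum of Rps27 and Rps27rt were added after the data were seen. Same-numbered yolk sac samples deviated together (correlations of 0.21 to 0.39), so their numbers were taken as pairs. Those of the embryo sets were not (lowest 0.06 at E8.5 and -0.21 at E9.5). The choice is uncertain. In yolk sac replicates 2 and 4 had 0.30 and 0.21, against 0.29 and 0.18 for the best differently numbered sample. At E8.5 replicates 1 to 3 had 0.31, 0.38 and 0.33, against 0.31, 0.24 and 0.57 for the best differently numbered sample. The labels name no pairs, and the main yolk sac fit left them out. With the pairs, 638 yolk sac genes were called in place of 341. Promoter windows are from RefSeq.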

Additional observations from a re-analysis of the deposited data

Results flagged for a closer look

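Rpl3l had a single high library in 2 groups, of 72 groups of 4 examined. In E8.5 KO embryos replicate 4 had 0.563 scaled FPKM of Rpl3l (10 fragments), against 0.0531 to 0.104 in the other 3. In WT yolk sacs replicate 2 had 0.106 (3 fragments), against 0 in the other 3. With 3 libraries at 0 any count above 0 in the fourth meets the limit, and 3 fragments are no more than a count of 0 allows, so this value does not show a library that stands apart. The gap between the highest library and the next took up more of the group's range than Dixon's 95 percent limit allows. Chance flags about 1 in 20 such groups.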

How the results depend on the processing

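The KO minus WT difference of Rps27l kept its sign in each set under every alternative run, and its call changed with several. At E8.5 Rps27l passed the limma threshold, making 1 paralogue called in place of 0, with values as deposited (0.73, adjusted p = 0.0424), TPM (0.66, 0.0455), array weights (0.80, 0.0467), a term for replicates 1 and 2 against 3 and 4 (0.79, 0.0166) and the replicate block (0.79, 0.0243). In E9.5 embryos 0 were called with no filter (1.11, 0.0856), TPM (0.75, 0.0701), the block (1.11, 0.0718) and without the 3 libraries low in T (1.21, 0.0661). In yolk sac 0 were called with no filter (0.68, 0.128), as deposited (0.67, 0.0587), without the trend (0.68, 0.0580) and with factors over all genes (0.67, 0.0597). Leaving out 1 library gave 0.95 to 1.29 in E9.5 embryos and 0.54 to 0.76 in yolk sac, with 0 to 1 paralogues called in each. The cause was not tested.

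Counts over all genes moved further. The replicate block called 1261 genes in place of 125 at E8.5 and 146 in place of 1637 in E9.5 embryos. It called 638 in place of 341 in yolk sac and 45 in place of 234 for the tissue difference. Of the 79 ribosomal protein genes in E9.5 embryos it called 0 in place of 24. Same-numbered embryo samples did not deviate together in every pair, so there the numbers were not taken as pairs. At E8.5 25 were called with no filter, 1652 with the term for replicates 1 and 2 against 3 and 4, 16 without the 2 libraries low in red cell markers and 34 to 79 without 1 library. In E9.5 embryos 112 were called with no filter, 3245 after TPM, 3498 with array weights, 35 without the 3 libraries and 96 (without WT replicate 2) to 2737 (without WT replicate 1) without 1 library. In yolk sac 146 were called with no filter, 222 at a mean FPKM of at least 5, 659 with array weights, 782 with the term and 89 to 292 without 1 library. The tissue difference had 107 with no filter, 969 after TPM and 1729 with array weights, and the stage difference 3 at a mean of at least 5, 10 as deposited and 13 with array weights, in place of 6.

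Signs turned only for values that were not called. TPM shifted the median over all tested genes to -0.11, -0.34 and -0.04 in the 3 sets. It gave -0.055 for Rpl22, -0.082 for Rpl39 and -0.049 for Rpl36a at E8.5, and -0.13 for Rpl7l1, -0.036 for Rpl3, -0.071 for Trp53, -0.35 for Rpl5 and -0.20 for Rpl23 in E9.5 embryos. The tissue difference became 0.072 for Rpl22l1 and 0.023 for Rpl7l1. Array weights gave 0.035 for Mdm4 at E8.5, -0.044 for Rpl5 in E9.5 embryos, and differences of 0.19 (tissue) and -0.070 (stage) for Rpl22l1. Rpl39 was at -0.0070 as deposited at E8.5, and Mdm2 in E9.5 embryos at 0.040 as deposited, 0.039 with factors over all genes and 0.042 in voom. Without the 3 libraries Rpl5 was at -0.077, Rpl23 at -0.059 and the Rpl36al ratio at -0.28, which a pseudocount of 0.5 put at -0.075. Without 1 library the E8.5 ranges were -0.10 to 0.021 for Rpl7l1, -0.037 to 0.18 for Rpl22, -0.093 to 0.18 for Rpl39, -0.036 to 0.21 for Rpl36a, -0.16 to 0.046 for Rpl3, -0.23 to 0.062 for Mdm4 and -0.11 to 0.065 for Rpl23. In E9.5 embryos they were -0.57 to 0.14 for Rpl22l1, -0.31 to 0.077 for Rpl7, -0.11 to 0.10 for Mdm2, -0.12 to 0.11 for Rpl5 and -0.31 to 0.26 for the Rpl36al ratio, and in yolk sac -0.0061 to 0.12 for Rpl5. Ratio tests without 1 library cannot reach an exact permutation p under 0.0571, nor paired ones under 0.125. Depth limits Rpl36al, Rpl39l and Rpl3l. For Rpl36al shared sequence is a further limit, since 59.0 percent of its 100-base stretches also occur in other genes.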
